A study of Mus musculus with 18 samples.

Results

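The genes described here are 9 that mouse eosinophils are known by or grow through: Ccr3, Siglecf, Adgre1, Il5ra, Csf2ra, Il3ra, Csf2rb, Csf2rb2 and Il1rl1. They were taken from the deposited table by gene name, 9 of the 22708 genes it holds. All 9 passed the minimum level for testing in every comparison.

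Eosinophils are granulocytes that leave the bone marrow and settle in the gut wall even in healthy animals. IL-5, GM-CSF and IL-3 keep them alive, and each cytokine has its own alpha chain (Il5ra, Csf2ra and Il3ra) that becomes a signalling receptor only when it joins a shared beta chain, the product of Csf2rb. Mice carry an additional beta chain gene, Csf2rb2, whose product serves the IL-3 receptor alone. CCR3 is the receptor for the eotaxins that draw eosinophils into tissue, Siglec-F is an inhibitory receptor for sialic acid, Adgre1 encodes an adhesion receptor best known from macrophages, and Il1rl1 encodes ST2, the receptor for IL-33.

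RNA was sequenced in bulk from eosinophils sorted from the small intestine of C57/BL6 mice aged 6 to 14 weeks. There were 18 samples, 6 labelled WT, 6 labelled Ahr-KO and 6 labelled Ahrr-KO, each with 3 males and 3 females. The sort took CD11b+MHC-II-SiglecF+SSChi cells after enrichment on CD11b beads, so Siglec-F protein was itself a criterion of the gate, and only RNA with an integrity number of at least 7 was sequenced. The genes asked for are those of the aryl hydrocarbon receptor, a transcription factor activated by dietary and microbial ligands (Ahr), and of its repressor (Ahrr). According to the study's methods, Ahr-KO and WT mice were neither littermates nor housed together, so genotype and cage cannot be told apart in these comparisons.

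Total counts ran from 3842977 to 8149200 in WT (median 6022409), from 6581818 to 10284124 in Ahr-KO (median 9647589) and from 8788867 to 12046933 in Ahrr-KO (median 10371556). WT F3 had the lowest total and yet a count in 20244 genes, and Ahr-KO F3 had one in 19694, while the other samples had one in 15146 to 17236. Ahrr-KO M3 had the lowest level of its group in 9 of the 9 genes. Leaving out Ahrr-KO M3 changed many values, which are given without it below.

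The genotype labels were checked on Ahr and Ahrr. On the deposited log2 scale, on which 5.02 stands for a count of 0, Ahrr lay between 9.79 and 10.39 in WT, between 5.02 and 5.79 in Ahr-KO and between 9.95 and 10.93 in the samples labelled Ahrr-KO. It was lower in Ahr-KO than in WT by a log2 difference of -4.83 (SE 0.14, adjusted p 4.95e-12, below every WT sample in 6 of 6). In the samples labelled Ahrr-KO it was not lower (difference from WT 0.28, SE 0.18, adjusted p 0.683, above every WT sample in 3 of 6), so that label rests on the deposit alone. Ahr itself lay between 13.40 and 14.40 in WT, between 14.15 and 14.67 in Ahr-KO and between 13.03 and 14.42 in Ahrr-KO. It was not lower in Ahr-KO, where it differed from WT by 0.61 (SE 0.19, adjusted p 0.0557, above every WT sample in 4 of 6). Against Ahrr-KO it was called higher (0.82, SE 0.23, adjusted p 0.0296). A count over the whole gene does not show which exons were transcribed.

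To compare levels between genes, normalized counts were divided by the length of all exons in kilobases. In WT, Ccr3 stood highest (3800.2 ± 642.1 normalized counts per kilobase, SD, n = 6), followed by Adgre1 (2453.0 ± 419.1). A middle group held Csf2rb (868.7 ± 146.2), Csf2ra (768.7 ± 185.8), Siglecf (729.9 ± 102.5), Il5ra (596.7 ± 133.5) and Csf2rb2 (479.5 ± 98.18). Neighbours within this group did not differ beyond their spread, although Siglecf exceeded Il5ra in 6 of 6 WT samples. Csf2rb exceeded Csf2ra in 3 of 6 WT samples. Il1rl1 (18.05 ± 4.548) and Il3ra (7.693 ± 3.725) were far lower and kept their order in 5 of 6 samples.

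The order shifted in Ahr-KO, where Csf2rb went from place 3 to place 6 with 312.3 ± 48.0 normalized counts per kilobase, below Csf2ra in 6 of 6 samples. Csf2rb2 kept place 7 at 132.2 ± 36.67. In Ahrr-KO, Csf2rb stayed in place 3 at 813.8 ± 291.5, and only Csf2rb2 and Il5ra exchanged places, an order held in 3 of 6 samples. With the longest transcript as the length, each of the 9 genes kept its place in WT. Csf2rb and Csf2ra then lay further apart, at 1290 and 969.2, and their order in single WT samples, given above, rests on the length of all exons.

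**Figure D1:**
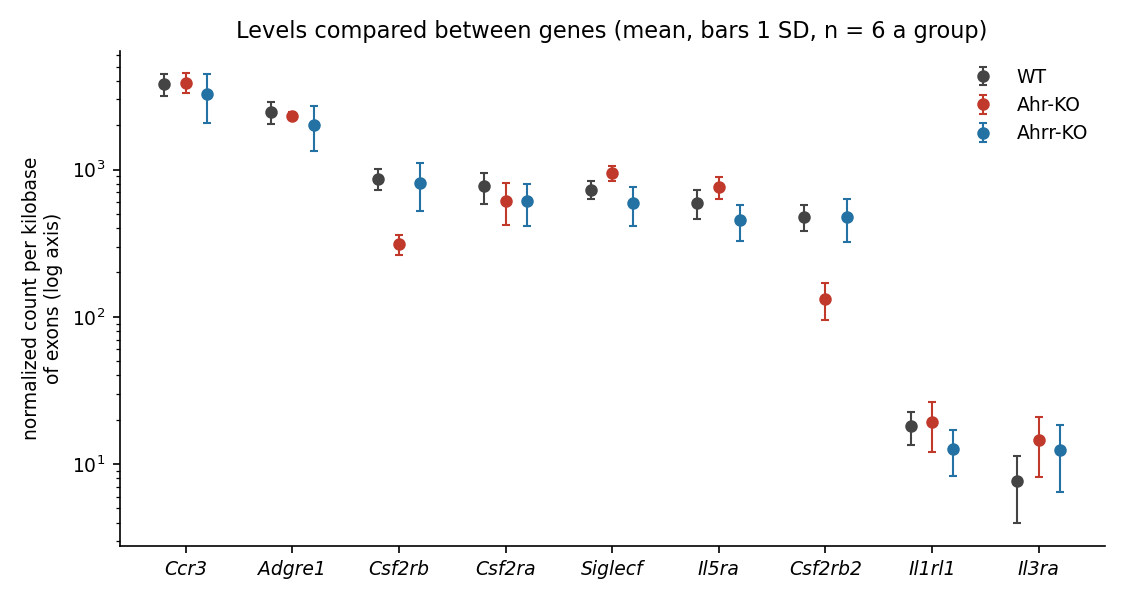
Mean normalized count per kilobase of exons (log axis) of each of the 9 genes in WT, Ahr-KO and Ahrr-KO, with bars of 1 SD over 6 samples. Csf2rb (868.7 in WT, 312.3 in Ahr-KO) and Csf2rb2 (479.5 in WT, 132.2 in Ahr-KO) are the genes whose Ahr-KO mean stands well apart.

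The beta chain genes lie next to each other on chromosome 15, Csf2rb on the plus strand at chr15:78325752-78353847 and Csf2rb2 on the minus strand at chr15:78282507-78305721 (GRCm38). Their starts face each other across 20030 bases. Their coding sequences, 2688 and 2634 bases long, were identical at 2503 of 2628 aligned positions (95.24%). The first coding exon shows how alike they are, and is printed in the direction of the gene from chr15:78335207-78335294 (plus strand) and chr15:78298142-78298229 (minus strand), with the 3 of 88 bases that differ in capitals.
Csf2rb: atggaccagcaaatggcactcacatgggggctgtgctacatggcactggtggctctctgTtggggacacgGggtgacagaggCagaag
Csf2rb2: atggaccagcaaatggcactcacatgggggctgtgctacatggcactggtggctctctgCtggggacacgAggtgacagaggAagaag
Reads of 75 bases cannot always be placed between such genes. Of all windows of 75 bases in the exons, 518 occurred in both, which is 7.15% of the 7243 windows of Csf2rb and 10.63% of the 4872 of Csf2rb2. The split of counts between the pair is uncertain to that extent, and their summed count is therefore given beside the separate values.

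Csf2rb, the chain shared by all 3 growth factor receptors, had log2 levels of 12.17 to 12.90 in WT (median 12.69), 10.89 to 11.45 in Ahr-KO (median 11.23) and 11.52 to 13.09 in Ahrr-KO (median 12.49). Every Ahr-KO sample lay below every WT sample and below every Ahrr-KO sample, with Ahrr-KO M3 the lowest of the remaining 12. The mean normalized count was 6321 ± 1064 (SD, n = 6) in WT and 2273 ± 349.3 in Ahr-KO, a ratio of 2.78. The log2 difference was -1.45 (SE 0.12, 95% interval -1.71 to -1.18, limma adjusted p 1.39e-06, lower in 6 of 6 samples).

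Csf2rb2, the chain for IL-3 alone, ranged from 10.63 to 11.49 in WT (median 11.19), from 8.88 to 9.82 in Ahr-KO (median 9.45) and from 10.20 to 11.62 in Ahrr-KO (median 11.23). Again no Ahr-KO sample overlapped either of the other groups. The mean normalized count fell from 2273 ± 465.4 in WT to 626.4 ± 173.8 in Ahr-KO, a ratio of 3.63, with a log2 difference of -1.78 (SE 0.15, 95% interval -2.10 to -1.45, adjusted p 1.31e-06, lower in 6 of 6 samples). With the counts of the pair summed, an alternative added after the data were seen, the difference was -1.55. Without WT F3 the differences were -1.47 for Csf2rb and -1.82 for Csf2rb2, and without Ahr-KO F3 -1.45 and -1.81.

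These were the only members called between Ahr-KO and WT, 2 of 9, both lower, where 8.84% of the 11346 genes tested were called, 3.68% as lower in Ahr-KO and 5.16% as higher. Over the 9 genes the median log2 difference was 0.04, against -0.004 over all genes tested. Groups that did not overlap were found for 3 of 9 members, Csf2rb, Csf2rb2 and Siglecf, and for 4.51% of all genes tested. In bulk RNA, fewer cells of a type and less RNA per cell cannot be told apart.

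**Figure D2:**
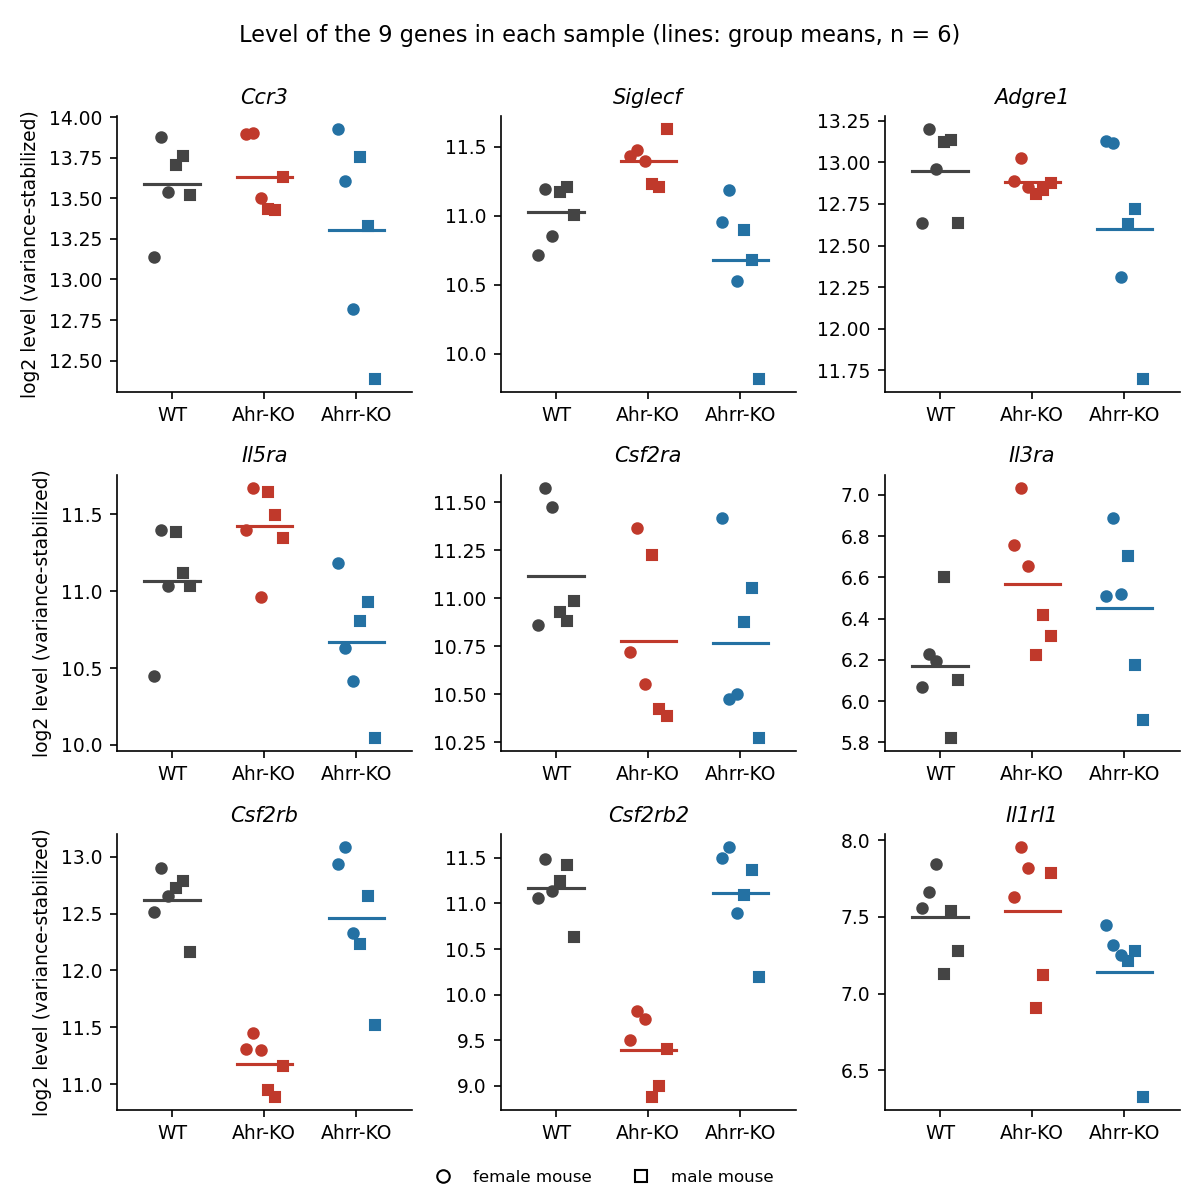
Log2 level (variance-stabilized, as deposited) of each of the 9 genes in every sample, with circles for females, squares for males and lines at the means of 6 samples. For Csf2rb and Csf2rb2 the Ahr-KO samples, at most 11.45 and 9.82, sit below all others, and Ahrr-KO M3 is the lowest Ahrr-KO square in each panel.

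Around the pair, 15 genes of the table started or ended within 250 kilobases and 6 of them were tested. Ncf4, which encodes a subunit of the phagocyte oxidase and lies at chr15:78244164-78262582, was the only neighbour called in Ahr-KO against WT (log2 difference -0.52, SE 0.12, adjusted p 0.0104). Its differences were -0.30 (SE 0.20, adjusted p 0.695) between Ahrr-KO and WT and -0.21 (SE 0.17, adjusted p 0.406) between Ahr-KO and Ahrr-KO. Csf2rb and Csf2rb2 are not among these 6.

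None of the alpha chain genes was called between Ahr-KO and WT, with differences upward for Il5ra and Il3ra and downward for Csf2ra. Il5ra, which binds IL-5, lay between 10.45 and 11.40 in WT (median 11.08), between 10.97 and 11.68 in Ahr-KO (median 11.45) and between 10.04 and 11.18 in Ahrr-KO (median 10.72). The WT and Ahr-KO groups overlapped, although 4 of 6 Ahr-KO samples were above every WT sample. The log2 difference of 0.35 (SE 0.15, adjusted p 0.179) did not pass the test. It ran from 0.15 to 0.37 across the alternatives and from 0.23 to 0.45 when a sample was left out, and was called in none.

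Csf2ra, which binds GM-CSF, ranged from 10.86 to 11.58 in WT (median 10.96), from 10.39 to 11.36 in Ahr-KO (median 10.64) and from 10.27 to 11.42 in Ahrr-KO (median 10.69). The groups overlapped in part, 3 of 6 Ahrr-KO samples lying below every WT sample, with WT F2, Ahr-KO F2 and Ahrr-KO F1 the highest of each. Ahr-KO differed from WT by -0.34 (SE 0.17, adjusted p 0.257, below every WT sample in 4 of 6).

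Il3ra, which binds IL-3, was barely above the floor of the scale, at 5.82 to 6.60 in WT (median 6.15), 6.22 to 7.04 in Ahr-KO (median 6.54) and 5.91 to 6.89 in Ahrr-KO (median 6.51). That corresponds to a median of 20.91 normalized counts in WT and 39.56 in Ahr-KO, so counting error weighs more here than for the other members. The difference of 0.40 (SE 0.15, adjusted p 0.116) between Ahr-KO and WT missed the threshold, with 6 of 6 Ahr-KO samples above the WT median and 3 above every WT sample. On the variance-stabilized scale a difference at so low a level is compressed. The mean normalized counts differed by a ratio of 1.88, and the log2 difference was 0.90 with log2 of normalized count plus 1 (adjusted p 0.116) and 0.925 with voom (adjusted p 0.102). The main value passed when WT M1, the highest WT sample, was left out (0.52, adjusted p 0.0199).

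Since each receptor needs an alpha and a beta chain, their transcripts were set against each other within each sample, as ratios of normalized counts per kilobase. These ratios were chosen after the values were seen. Il5ra over Csf2rb was 0.469 to 0.913 in WT (median 0.679), 1.60 to 3.34 in Ahr-KO (median 2.36) and 0.358 to 0.738 in Ahrr-KO (median 0.596). In WT and Ahrr-KO the beta chain transcript was thus the more abundant in every sample, and in Ahr-KO the alpha chain transcript was.

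Csf2ra over Csf2rb gave 0.662 to 1.11 in WT (median 0.895), 1.45 to 3.09 in Ahr-KO (median 1.74) and 0.398 to 1.035 in Ahrr-KO (median 0.844). The Ahr-KO samples again stood above all others. The log2 differences between Ahr-KO and WT were 1.83 for Il5ra and 1.12 for Csf2ra over Csf2rb. Csf2rb alone separated the groups already, so these ratios restate that separation in terms of the receptor chains and their tests add nothing to it.

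Both beta chains fell in Ahr-KO, Csf2rb2 by more. Csf2rb2 over Csf2rb was 0.516 to 0.590 in WT (median 0.545), 0.327 to 0.490 in Ahr-KO (median 0.417) and 0.549 to 0.686 in Ahrr-KO (median 0.577). The Ahr-KO range lay below both others, a log2 difference from WT of -0.41 (two-sided exact permutation p 0.00216, the smallest that 6 against 6 samples can give, 0.00324 after adjustment over 15 ratio tests, lower in 6 of 6 samples). As the ratio was picked with the values known, that p is descriptive. This ratio is the value that the shared read windows touch most directly, and their part in it was not tested.

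For IL-3, Il3ra over Csf2rb2 had a median of 0.0152 in WT, 0.1055 in Ahr-KO and 0.0268 in Ahrr-KO, and Il3ra over Csf2rb medians of 0.00827, 0.0451 and 0.0148. The alpha chain transcript therefore stayed the scarcer in every group. Between Ahr-KO and WT these ratios differed by 2.82 and 2.41 on the log2 scale (higher in 6 of 6 samples), again with the fall of the beta chains built in. None of the 5 ratios passed between Ahrr-KO and WT by the exact permutation test after adjustment (adjusted p from 0.062 to 0.474), and Il3ra over Csf2rb was the only ratio under 0.05 before it (0.82, exact p 0.0455).

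**Figure D3:**
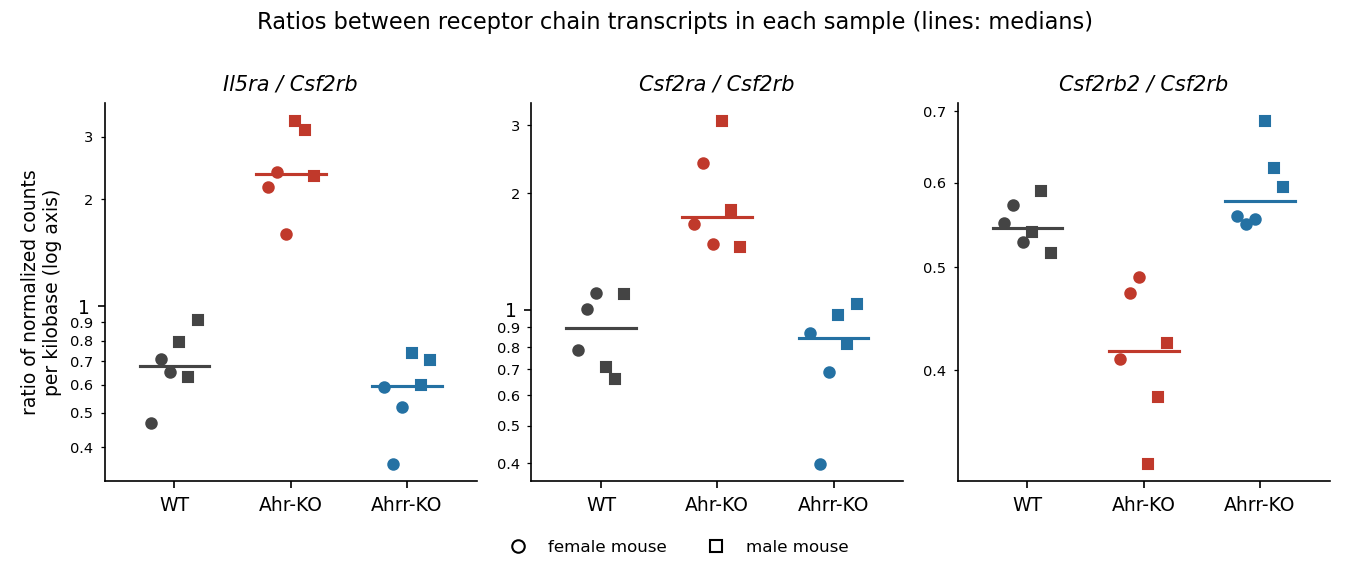
Ratio of normalized counts per kilobase (log axes) between receptor chain transcripts in every sample, with circles for females, squares for males and lines at the medians of 6 samples. Il5ra over Csf2rb is at least 1.60 in Ahr-KO and at most 0.913 elsewhere, and Csf2rb2 over Csf2rb is at most 0.490 in Ahr-KO and at least 0.516 elsewhere.

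Among the identity genes, Ccr3 lay between 13.14 and 13.88 in WT (median 13.62), between 13.43 and 13.90 in Ahr-KO (median 13.57) and between 12.39 and 13.93 in Ahrr-KO (median 13.47). The groups overlapped almost wholly, and the wide Ahrr-KO range came from M3 and F3 at its low end. Ahr-KO and WT differed by 0.04 (SE 0.15, 95% interval -0.28 to 0.36, adjusted p 0.902, above the WT median in 3 of 6). Adgre1 was as close, at 12.64 to 13.20 in WT (median 13.04), 12.81 to 13.03 in Ahr-KO (median 12.86) and 11.70 to 13.13 in Ahrr-KO (median 12.67). Its difference was -0.07 (SE 0.13, 95% interval -0.34 to 0.20, adjusted p 0.79), although 6 of 6 Ahr-KO samples lay below the WT median. For Adgre1 the alternatives gave -0.20 to -0.05, and leaving out a sample gave -0.14 to -0.015.

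Siglecf had levels of 10.72 to 11.21 in WT (median 11.09), 11.21 to 11.63 in Ahr-KO (median 11.42) and 9.81 to 11.19 in Ahrr-KO (median 10.79). The lowest Ahr-KO sample, M2 at 11.2127, was only just above the highest WT sample, M2 at 11.2107. The difference between Ahr-KO and WT was 0.37 (SE 0.11, adjusted p 0.0529, higher in 6 of 6 samples) and missed the threshold narrowly. It passed without WT F2 (0.42, adjusted p 0.0351), without Ahr-KO M1 (0.42, adjusted p 0.0476) and without Ahr-KO M2 (0.42, adjusted p 0.0444). It also passed with a minimum mean of 3 above the lowest value (adjusted p 0.0443) and with quantile normalization (0.33, adjusted p 0.026), over a range of 0.026 to 0.268 across all alternatives for this result. The gate on Siglec-F protein set a floor under the protein in all groups, and its part in the transcript level was not tested.

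Il1rl1, the gene of ST2, ranged from 7.13 to 7.84 in WT (median 7.55), from 6.91 to 7.96 in Ahr-KO (median 7.71) and from 6.33 to 7.45 in Ahrr-KO (median 7.26). The gene makes a receptor in the membrane and a soluble decoy, and the count does not separate them. The Ahr-KO range enclosed the WT range, and the difference was 0.04 (SE 0.15, adjusted p 0.912, above the WT median in 4 of 6). Its sign changed when WT F1 (-0.001), Ahr-KO F2 (-0.008) or Ahr-KO M3 (-0.07) was left out, and that of Ccr3 when WT F1 (-0.07), Ahr-KO F1 (-0.01) or Ahr-KO F2 (-0.01) was.

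The samples labelled Ahrr-KO were compared with the same 6 WT samples, so the comparisons of both genotypes with WT share their controls. None of the 9 genes was called by limma, where 0.0779% of 11546 genes were, 1 had an unadjusted p under 0.05 (Il1rl1, difference -0.36, SE 0.16, adjusted p 0.665, below the WT median in 6 of 6), and limma voom on counts called 0. None of the 9 separated the groups without overlap, against 0.459% of all genes. The log2 differences ran from -0.40 for Il5ra to 0.28 for Il3ra, with 8 of 9 below 0 and adjusted p from 0.665 to 0.947. Their median was -0.35, and that of all genes was 0.01. Without Ahrr-KO M3, which also had an epithelial marker sum of 47325, 6 of 9 were below 0 with a median of -0.17. The values then were -0.22 for Il1rl1, -0.26 for Il5ra, -0.27 for Csf2ra, -0.17 for Siglecf, -0.17 for Adgre1, -0.09 for Ccr3 and 0.38 for Il3ra. With the epithelial sum as a covariate, described below, Ccr3 (0.11), Siglecf (0.0065), Csf2rb (0.31), Csf2rb2 (0.37) and Adgre1 (0.13) were above 0. Il5ra, Csf2ra and Il1rl1 stayed below 0 in every alternative.

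For the beta chains this comparison gave -0.16 (SE 0.22, 95% interval -0.64 to 0.32) for Csf2rb and -0.05 (SE 0.22, 95% interval -0.52 to 0.42) for Csf2rb2, beside -1.45 and -1.78 in Ahr-KO. Without Ahrr-KO M3 the values were 0.005 and 0.12. The sign for Csf2rb2 also changed without WT M2 (0.04) and without Ahrr-KO F3 (0.03). Differences of the size seen in Ahr-KO were outside both intervals.

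Compared directly, Ahr-KO and Ahrr-KO differed in 4 of 9 members, 2 higher and 2 lower in Ahr-KO, where 14.9% of 11474 genes were called, 6.84% as higher and 8.04% as lower. Groups without overlap occurred for 3 of 9 members (Siglecf, Csf2rb and Csf2rb2) and for 4.61% of all genes. Csf2rb differed by -1.28 (SE 0.19, adjusted p 0.000573, lower in 6 of 6) and Csf2rb2 by -1.72 (SE 0.19, adjusted p 4.82e-05, lower in 6 of 6). Siglecf was higher in Ahr-KO by 0.72 (SE 0.18, adjusted p 0.02, in 6 of 6) and Il5ra by 0.75 (SE 0.19, adjusted p 0.018, above every Ahrr-KO sample in 5 of 6). Siglecf lost the call without Ahr-KO M3 (0.64, adjusted p 0.0558). Without Ahrr-KO M3 the 4 calls held, with 0.56 for Siglecf, 0.62 for Il5ra, -1.44 for Csf2rb and -1.87 for Csf2rb2, while the count over all genes went from 1708 to 923.

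**Figure D4:**
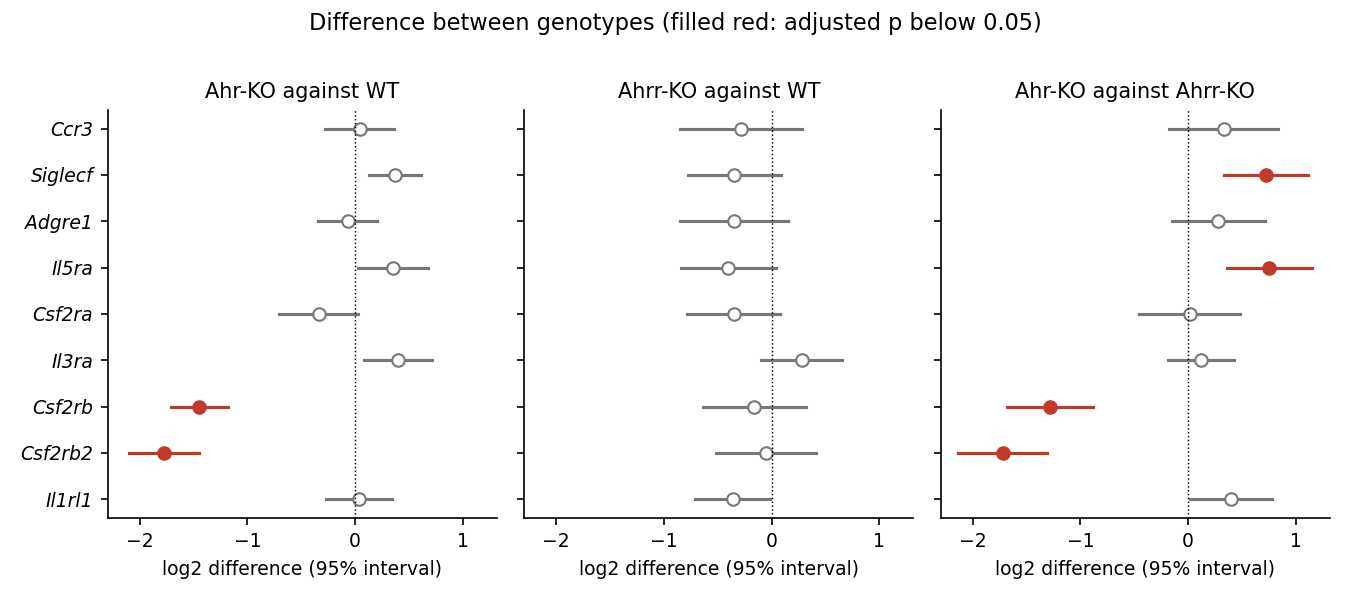
Log2 difference with its 95% interval for each of the 9 genes in Ahr-KO against WT, Ahrr-KO against WT and Ahr-KO against Ahrr-KO, filled in red where the adjusted p was below 0.05. Csf2rb (-1.45, -0.16 and -1.28) and Csf2rb2 (-1.78, -0.05 and -1.72) are called in the panels with Ahr-KO, and Siglecf (0.72) and Il5ra (0.75) only in the last.

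Transcripts known from epithelial cells moved with part of these results, and whether they came from the sorted cells or from others was not tested. The summed normalized count of 11 epithelial marker genes, led by Lyz1, was 7005 to 19671 in WT (median 9989), 7171 to 11030 in Ahr-KO (median 8370) and 9246 to 52104 in Ahrr-KO (median 27870). The highest sums were in Ahrr-KO M1 (52104), M3 (47325), F3 (32737) and M2 (23002). None of the 11 markers was at 0 in all samples, and 4 of 11 were called lower in Ahr-KO than in Ahrr-KO, 1 of 11 lower in Ahr-KO than in WT.

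After the mean of each genotype and sex was removed, Pearson's r with the log2 of this sum across the 18 samples was below 0 for all 9 genes. It was -0.738 for Csf2rb, -0.613 for Csf2rb2, -0.741 for Adgre1, -0.634 for Il5ra, -0.536 for Ccr3 and -0.477 for Siglecf, and -0.836, -0.666, -0.852, -0.65, -0.569 and -0.529 without Ahrr-KO M3. For Csf2ra, Il3ra and Il1rl1 it was -0.382, -0.331 and -0.141 (-0.346, -0.287 and -0.03 without Ahrr-KO M3). Csf2rb was thus lower where the sum was higher inside Ahrr-KO (r -0.883, n = 6) and WT (-0.73, n = 6), but not inside Ahr-KO (0.548, n = 6), where the sum varied little. Without removal of the means, r was -0.778 for Siglecf and 0.142 for Csf2rb, since the Ahr-KO samples combine low sums with low Csf2rb. With the sum of the eosinophil markers, nearly all Alox15, r after removal of the same means was above 0 for all 9 genes, among them 0.875 for Csf2rb, 0.872 for Csf2rb2, 0.921 for Siglecf and 0.918 for Adgre1 (0.769, 0.767, 0.826 and 0.847 without Ahrr-KO M3). For Il5ra, Csf2ra, Il3ra and Il1rl1 it was 0.603, 0.414, 0.496 and 0.718 (0.372, 0.196, 0.249 and 0.434 without Ahrr-KO M3). With the neutrophil sum, nearly all Retnlg, r was 0.554, 0.625, 0.799 and 0.612 for Csf2rb, Csf2rb2, Siglecf and Adgre1 (0.401, 0.506, 0.797 and 0.485 without Ahrr-KO M3). Inside Ahr-KO, Csf2rb had r 0.879 and 0.867 with the eosinophil and neutrophil sums, and Il5ra had -0.462 and -0.084 (n = 6).

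With the epithelial sum as a covariate, an alternative added after the data were seen, Siglecf and Il5ra no longer differed between Ahr-KO and Ahrr-KO by the test (each 0.34, adjusted p 0.746). Csf2rb (-1.83, adjusted p 0.000309) and Csf2rb2 (-2.05, adjusted p 0.00071) did, and in Ahr-KO against WT they stayed at -1.55 and -1.87. Between Ahr-KO and Ahrr-KO the sum went largely with genotype (7171 to 11030 and 9246 to 52104). Genotype and sum are therefore hard to separate there, and a call lost under this covariate, here or below, does not show its source.

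**Figure D5:**
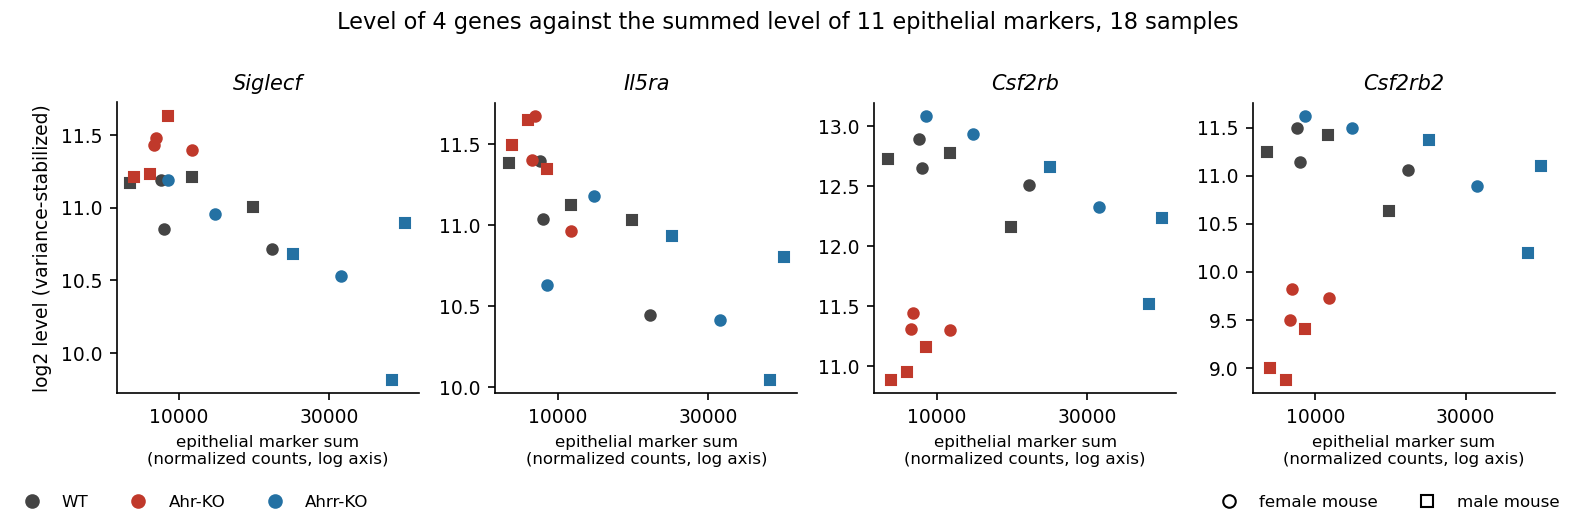
Log2 level (variance-stabilized) of Siglecf, Il5ra, Csf2rb and Csf2rb2 in each of the 18 samples against the summed normalized count of 11 epithelial marker genes (log axis), with circles for females and squares for males. Within WT and within Ahrr-KO all 4 genes tend to be lower where the sum is higher (in Ahrr-KO, r -0.669, -0.49, -0.883 and -0.788), and the Ahr-KO samples, at sums up to 11030, form a separate low group for Csf2rb and Csf2rb2.

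The sorted cells were also checked on eosinophil markers outside the 9 genes. Of 9 such markers 4 passed the minimum level, Ear6 had a mean count below 1, and Alox15 made up nearly all of their sum, with a median of 17260 in WT and 24895 in Ahr-KO. The summed normalized count was 13577 to 20724 in WT (median 17944), 23022 to 29590 in Ahr-KO (median 26458) and 7559 to 23366 in Ahrr-KO (median 17277), with the lowest value in Ahrr-KO M3. It was higher in every Ahr-KO sample than in any WT sample, mainly through Alox15, and 2 of the 4 tested markers were called higher.

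Neutrophils carry Csf2ra, Csf2rb and Csf2rb2 too, so their markers were set beside these genes. The sum of 10 neutrophil markers was 24036 to 49078 in WT, 55720 to 113844 in Ahr-KO and 24756 to 45810 in Ahrr-KO, nearly all of it Retnlg, with Elane at a mean count below 1. Of the 6 tested, Retnlg included, 3 were called higher in Ahrr-KO than in WT (median difference 0.92), where 9 of 11546 genes were called in all, 2 higher and 1 lower in Ahr-KO than in WT (0.37), and 1 higher and 4 lower in Ahr-KO than in Ahrr-KO (-1.08). The part of neutrophils in the levels of Csf2ra, Csf2rb and Csf2rb2 was not tested.

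Mast cells and basophils express Il1rl1. The mast cell sum was 58.79 to 179.1 in WT, 62.1 to 538 in Ahr-KO and 69.04 to 215.1 in Ahrr-KO. It was mostly Kit, which reached 518.8 in Ahr-KO, so the sum describes a single gene more than a cell type. It was highest in Ahr-KO F2 (538) and F1 (341.7), and Ahr-KO F2 was also the sample with most Il1rl1 (187.9 normalized counts). Tpsb2, Fcer1a, Ms4a2 and the basophil gene Mcpt8 had mean counts below 1, and the basophil sum was at most 28.23. How much of the Il1rl1 count came from such cells was not tested.

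The endothelial sum was nearly all Pecam1 (medians 3322 for the sum and 3174 for Pecam1 in WT, 2106 and 2023 in Ahr-KO). It was 1877 to 2331 in Ahr-KO, 2577 to 3817 in WT and 1763 to 3812 in Ahrr-KO. Of the 2 endothelial markers tested between Ahr-KO and WT, 1 was called lower, so the sum describes a single gene more than a cell type. Medians in WT, Ahr-KO and Ahrr-KO were 548, 285.6 and 3898 for B and plasma cells (Jchain), and 1281, 38.26 and 51.28 for pancreatic acinar cells (Ctrb1), of which 3 of 7 markers were called lower in Ahr-KO than in WT. They were 85.72, 77.14 and 316.7 for fibroblasts (Col3a1), with the highest sum, 1626, in Ahrr-KO M3. They were 1249, 1683 and 2342 for macrophages (Csf1r) and 1959, 1545 and 3157 for dendritic and antigen-presenting cells (Cd74), while the monocyte sum (Ccr2) was at most 301.5, 480.8 and 413.9. The part of these cells in the levels of the 9 genes was not tested.

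Sex was compared over all 18 samples with genotype in the model. None of the 9 genes was called by limma, where 3.06% of 11468 genes were, 4 had an unadjusted p under 0.05, and voom called 0. The 4 were higher in females, Il1rl1 by 0.435 (SE 0.13, adjusted p 0.0789), Csf2rb2 by 0.39 (SE 0.16, adjusted p 0.187), Csf2rb by 0.38 (SE 0.15, adjusted p 0.182) and Il3ra by 0.29 (SE 0.13, adjusted p 0.239). In all, 8 of 9 were above 0, with Il5ra at -0.07 the exception. Siglecf turned to -0.02 without Ahrr-KO M3 and Il5ra to 0.01 without WT F1.

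Within Ahr-KO the beta chains were lowest in males. Csf2rb was 10.89 to 11.16 in the 3 males and 11.30 to 11.45 in the 3 females, and Csf2rb2 was 8.88 to 9.41 and 9.50 to 9.82. In the same samples the sum for dendritic and antigen-presenting cells was 2230 to 5326 in males and 484.9 to 859.4 in females. The mast cell sum, mostly Kit, was 62.1 to 78.07 in males and 147 to 538 in females, and the part of such cells was not tested. Whether the difference between Ahr-KO and WT depended on sex was tested with an interaction term, which came to 0.23 (SE 0.25, adjusted p 0.96) for Csf2rb and 0.46 (SE 0.29, adjusted p 0.954) for Csf2rb2. These terms ran from 0.11 to 0.42 and from 0.29 to 0.69 when a sample was left out. None of the 9 interactions was called by limma or by voom and none had an unadjusted p under 0.05, where limma called 0.0% of 11346 genes, with 533 under 0.05 unadjusted and 0 called by voom. The same held for the interaction of sex with Ahrr-KO against WT, in which limma and voom called none of the 9, none was under 0.05 unadjusted, and limma called 0.0% of 11546 genes, with 544 under 0.05 unadjusted and 0 called by voom.

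Members resembled each other across samples once genotype and sex means were removed. Over the 36 pairs, Pearson's r across 18 samples ran from -0.406 (Il5ra with Csf2rb2) to 0.985 (Csf2rb with Csf2rb2), with 29 above 0. After the mean of each genotype and sex was taken away, the lowest was 0.187 and the median 0.619. Siglecf with Csf2rb, for example, gave -0.245 before and 0.859 after. Much of this rests on Ahrr-KO M3, without which (n = 17) the lowest was -0.164 and the median 0.413, and before removal the range was -0.577 to 0.989 with 27 of 36 above 0. What the members share across samples was not tested.

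The 2 genes most like each member across the 18 samples were looked up among 11468. For Csf2rb they were Csf2rb2 (r 0.985) and Mmp25 (0.973), and for Csf2rb2 they were Csf2rb and Notch1 (0.983). After removal of the group means these stood at 0.966, 0.866 and 0.917. Il5ra was closest to Aoah (0.958) and Gsap (0.944), Csf2ra to Bin2 (0.885) and Mphosph10 (0.774), and Il3ra to Nelfe (0.864) and Fosl2 (0.858). Siglecf paired with Cybb (0.959) and Mfng (0.955), Ccr3 with Tspan13 (0.943) and Ostf1 (0.936), Adgre1 with Prkcb (0.966) and Sorl1 (0.952), and Il1rl1 with H13 (0.873) and P2ry2 (0.836).

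The ligands of these receptors were looked for in the same cells. None of the 9 ligand genes passed the minimum level, with total counts over 18 samples of 19 for Il5, 12 for Csf2, 3 for Il3 and 146 for Il33. The chemokine ligands of CCR3 had 116 (Ccl11), 62 (Ccl24), 87 (Ccl5), 85 (Ccl7) and 107 (Ccl8).

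Downstream of the beta chain, 32 genes of IL-5, GM-CSF and IL-3 signalling were tested in Ahr-KO against WT, and 2 were called higher and 1 lower, with a median difference of 0.02. That is close to the share over all genes, 8.84%, and so are the counts of 1 in the lists of 12 to 15 genes below. Cblb, a ubiquitin ligase that restrains the receptors, was higher by 1.20 (SE 0.17, adjusted p 0.000251) and the adaptor Gab2 lower by -0.47 (SE 0.09, adjusted p 0.00342). Of 13 targets and feedback genes of STAT5, the transcription factor that these receptors activate, 2 were higher and 1 lower. Socs2, a feedback inhibitor, was lower by -1.50 (SE 0.18, adjusted p 4.27e-05), Myc higher by 0.99 (SE 0.12, adjusted p 3.63e-05) and the survival gene Bcl2 higher by 0.59 (SE 0.12, adjusted p 0.00705).

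For the receptors without a beta chain, 1 of 15 genes of IL-33 receptor signalling was called, the kinase Irak2 (-0.95, SE 0.11, adjusted p 2.35e-05), and 1 of 13 of chemokine receptor signalling, the arrestin Arrb1 (-0.80, SE 0.12, adjusted p 0.000365). Of 12 transcription factors of the eosinophil lineage, Id2 was called (1.52, SE 0.14, adjusted p 3.52e-06). Among 17 other eosinophil genes 7 were higher and 1 lower, led by Cd34 (2.40, adjusted p 9.43e-08), the granule protein gene Prg2 (2.30, adjusted p 3.47e-07) and the chemokine receptor Ccr1 (-1.12, adjusted p 0.00221). The median difference of these 17 was 0.31, against -0.004 over all genes. The list was chosen with earlier results of these data known, so this median only describes the genes picked.

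Relatives of Siglecf and Adgre1 were called higher in 2 of 6 cases, Siglece by 0.66 (adjusted p 0.00824) and Cd33 by 0.46 (adjusted p 0.0354). Cd33 lost the call without WT F1, F3, M2 or M3 or Ahr-KO F1, F2, F3, M1 or M3 (adjusted p 0.0501 to 0.0921). Among 19 other cytokine receptors 5 were higher and 1 lower, led by Il13ra1 (0.845, adjusted p 0.000115), Il17ra (0.60, adjusted p 0.00326) and Csf3r (0.59, adjusted p 0.0145). With all 18 samples in a joint fit Siglece (adjusted p 0.0587), Csf3r (0.0601) and Cd33 (0.115) lost the call, and Cd33 also with no minimum mean (0.0716) and with the epithelial covariate (0.0774). In Ahrr-KO against WT, with 9 of 11546 genes called (0.0779%), Csf3r (1.18, SE 0.20, adjusted p 0.0426) was the only gene called in any of these lists. That call was lost without any WT sample and without Ahrr-KO F2, F3, M2 or M3 (adjusted p 0.0538 to 0.167). It was also lost with no minimum mean (0.0645), median centring (0.113), log2 of normalized count plus 1 (0.0558) and voom (0.0738). Of the 6 neutrophil markers tested between Ahrr-KO and WT, 3 were called higher, with a median difference of 0.92 over the 6. Csf3r is itself among these 6 and among the 3 called, so that count and median are not independent of its call. The part of neutrophils in the Csf3r level was not tested.

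Between Ahr-KO and Ahrr-KO, where 14.9% of all genes were called, 3 of 32 genes of IL-5, GM-CSF and IL-3 signalling were called, among them Cblb (1.14, adjusted p 0.0002) and Gab2 (-0.42, adjusted p 0.047). Gab2 lost the call without any Ahr-KO sample or Ahrr-KO F2, M1 or M2 (adjusted p 0.0659 to 0.0976). Of the 13 STAT5 targets and feedback genes 4 were called, among them Socs2 (-1.48, adjusted p 3.27e-05), Myc (1.31, adjusted p 0.000232) and Bcl2 (0.78, adjusted p 0.0066). In IL-33 receptor signalling 2 of 15 were, Irak2 (-0.87, adjusted p 0.00176) and Nfkb1 (0.51, adjusted p 0.0293), the latter not without Ahr-KO F1, F2, M1, M2 or M3 or Ahrr-KO F3 or M3 (0.0557 to 0.0791). In chemokine receptor signalling 2 of 13 were, Rock2 (0.63, adjusted p 0.0289) and Arrb1 (-0.58, adjusted p 0.0231). Rock2 lost the call without Ahr-KO F1, F2, M1, M2 or M3 or Ahrr-KO F3, M1 or M3 (0.0518 to 0.0748), and Arrb1 without Ahr-KO F1 or M1 (0.0575 to 0.0596). With the epithelial covariate the calls of Bcl2 (0.39, adjusted p 0.588), Rock2 (0.24, 0.827), Nfkb1 (0.14, 0.889) and Gab2 (-0.71, 0.0702) were lost. Median centring ended those of Arrb1 (0.0507) and Gab2 (0.106), omitting sex those of Arrb1 (0.0655), Nfkb1 (0.103) and Gab2 (0.0661), and Gab2 was also lost with no minimum mean (0.0722) and no trend (0.0502).

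In the lists of cell identity the same comparison called 6 of 17 other eosinophil genes, led by Cd34 (2.33, adjusted p 6.37e-07), Prg2 (2.07, adjusted p 1.81e-05) and Ccr1 (-1.22, adjusted p 0.000477). It called 4 of 12 lineage transcription factors, led by Id2 (1.39, adjusted p 0.000257), Irf8 (-0.82, adjusted p 0.022) and Cebpa (-0.69, adjusted p 0.0114), with Irf8 lost without Ahr-KO F2 or M3 or Ahrr-KO M3 (0.0541 to 0.0571). Of the 6 relatives of Siglecf and Adgre1 it called 4, led by Cd22 (1.58, adjusted p 0.00333), Siglecg (0.66, adjusted p 0.0389) and Cd33 (0.65, adjusted p 0.0143). Siglecg was lost without Ahr-KO F1, F2, M1, M2 or M3 or Ahrr-KO F3, M1 or M3 (0.0648 to 0.0983). Of 19 other cytokine receptors it called 7, led by Il6st (-0.77, adjusted p 0.037), Il13ra1 (0.75, adjusted p 0.0011) and Il6ra (-0.66, adjusted p 0.0409). Il6st was lost without Ahr-KO F1, F2, M1 or M3 or Ahrr-KO F3, M2 or M3 (0.0535 to 0.0902), and Il6ra without the same Ahr-KO samples or Ahrr-KO F2, F3, M2 or M3 (0.0522 to 0.103).

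Of these 12 named genes 9 lost the call with the epithelial covariate, under which the count over all genes between Ahr-KO and Ahrr-KO went from 1708 to 218. As given above, the epithelial sum went largely with genotype there, so a lost call does not show its source. Lost were Id2 (1.17, adjusted p 0.0503), Irf8 (-0.47, 0.7), Cebpa (-0.40, 0.611), Cd22 (0.90, 0.42), Siglecg (0.15, 0.928), Cd33 (0.32, 0.682), Il6st (-0.45, 0.753), Il13ra1 (0.68, 0.0927) and Il6ra (-0.83, 0.289), while Cd34, Prg2 and Ccr1 kept the call. Omitting sex ended the calls of Irf8 (0.0655), Siglecg (0.121), Il6st (0.0903) and Il6ra (0.0529), and dropping the minimum mean those of Siglecg (0.0606), Il6st (0.0605) and Il6ra (0.072). Il6ra was also lost with median centring (0.0526) and quantile normalization (0.0531).

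With 3.06% of all genes called, 282 of 351 higher in females, a number that ran from 142 to 733 genes when a sample was left out, females and males differed in 4 of the 13 STAT5 targets and feedback genes, all higher in females, among them Cish (0.87, SE 0.19, adjusted p 0.0165) and Socs2 (0.71, SE 0.16, adjusted p 0.018). Osm (0.72, adjusted p 0.0499) lost the call without WT F2, M2 or M3, any Ahr-KO sample, or Ahrr-KO F1, F2, M2 or M3 (adjusted p 0.0529 to 0.113). In IL-33 receptor signalling 2 of 15 were higher in females, Irak3 (0.74, adjusted p 0.0168) and Irak2 (0.49, adjusted p 0.0278), the latter not without WT F2 or M3, Ahr-KO F2, M1, M2 or M3, or Ahrr-KO F1, F2, M2 or M3 (0.0508 to 0.0682). The lineage factor Gata2 was higher in females (0.83, SE 0.16, adjusted p 0.00798). So were 4 of 19 other cytokine receptors, led by Kit (0.94, adjusted p 0.0245), Il10ra (0.75, adjusted p 0.0128) and Ifnar1 (0.55, adjusted p 0.0345). Kit also led the mast cell markers, whose sum was 147 to 538 in Ahr-KO females and 62.1 to 78.07 in Ahr-KO males. That sum is mostly Kit itself (Ahr-KO medians 112.6 for the sum and 92.68 for Kit), so it adds nothing to the Kit difference. A difference in such cells was not told apart. The Kit call was lost without WT F2 or Ahr-KO F1, M1, M2 or M3 (0.052 to 0.0587), and Ifnar1 without WT F2 or M3, Ahr-KO F1, F2, M1, M2 or M3, or Ahrr-KO F1, F2 or M3 (0.0571 to 0.0834). With no minimum mean Osm (0.102), Irak2 (0.0542), Kit (0.0544) and Ifnar1 (0.0669) lost the call, and Osm also with median centring (0.05), quantile normalization (0.0537), log2 of normalized count plus 1 (0.0523), voom (0.0547) and no trend (0.0525).

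Promoter windows were read from the RefSeq promoter table (GRCm38.p6), which had entries for 7 of the 9 genes and none for Csf2rb and Adgre1. They were searched on both strands for GCGTG, the core that the aryl hydrocarbon receptor binds, and for AGATAA or TGATAA, which GATA factors bind. GCGTG occurred in 28.2% of all 32851 windows, and among the members in those of Il5ra, Il3ra and the second of 2 windows of Il1rl1. The Il3ra window (chr14:14346245-14346494) lies mostly inside the gene as GENCODE draws it, with the first of its 2 matches upstream of that start and the other inside the gene. AGATAA or TGATAA occurred in 16.6% of all windows, and in those of Ccr3, Il5ra, Csf2rb2 and Il1rl1. The windows of Csf2rb2, the member with the largest difference, and of Il5ra, the alpha chain with both motifs, are printed in the direction of the gene with matches in capitals, from chr15:78305722-78305971 and chr6:106749038-106749287, both on the minus strand.
Csf2rb2: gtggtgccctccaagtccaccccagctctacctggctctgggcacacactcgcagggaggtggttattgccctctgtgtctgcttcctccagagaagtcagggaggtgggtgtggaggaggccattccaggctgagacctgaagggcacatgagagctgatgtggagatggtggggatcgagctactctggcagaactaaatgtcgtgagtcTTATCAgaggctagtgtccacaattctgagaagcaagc
Il5ra: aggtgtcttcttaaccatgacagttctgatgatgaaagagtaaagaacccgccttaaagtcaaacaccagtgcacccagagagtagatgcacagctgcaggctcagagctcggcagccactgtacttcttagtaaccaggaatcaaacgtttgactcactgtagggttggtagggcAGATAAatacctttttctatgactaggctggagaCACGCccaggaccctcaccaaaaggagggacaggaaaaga
TTATCA and CACGC are TGATAA and GCGTG read on the other strand. A match describes the letters of the window and is not evidence of binding.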

How the data were processed

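RNA of 18 samples of sorted small-intestinal eosinophils was sequenced in single-ended reads of at least 75 bases. The authors aligned them to GRCm38 (Ensembl 86) with STAR 2.5.2, counted with RSEM 1.3.0 and deposited variance-stabilized log2 values made with DESeq2 in R 4.0.3. Inverting the transformation returned integers throughout (100%, within 0.0001), from which depths, normalized counts and ratios were computed. Each comparison used limma 3.58.1 in R 4.3.3 on all genes whose mean was at least 1 above the lowest value, with a mean-variance trend, sex or genotype as covariate, Benjamini-Hochberg adjustment and a threshold of 0.05. Chain ratios used two-sided exact permutation tests. Gene coordinates and exon lengths came from GENCODE (GRCm38), and 22685 of 22708 gene IDs matched RefSeq.

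The members and the gene lists were chosen with earlier results of these data known. Genes named are the 9 members, Ahr and Ahrr, up to 3 called genes with the largest difference per list and comparison, the most abundant gene of each marker list, and the 2 genes most like each member. Neighbours on chromosome 15 and defining markers near 0 were named after their values were seen. Alternatives were the minimum mean (none, or 3), centring on the median, quantile normalization, log2 of normalized count plus 1, limma voom on counts, no trend, a replicate block, no sex covariate, all 18 samples in a joint fit, leaving out each sample, and the longest transcript as length. Summaries and plots used scipy 1.17.1, matplotlib 3.10.9, pandas 2.3.3 and numpy 2.4.6 under Python 3.11.15.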

Additional observations from a re-analysis of the deposited data

Results flagged for a closer look

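Of 42 groups of 6 samples examined, over the 9 genes, 3 chain ratios and 2 marker sums, 2 held a sample far from the others, and chance gives about 1 in 20. Adgre1 was 13.0278 in Ahr-KO F2, while the other 5 Ahr-KO samples lay between 12.8075 and 12.8865, a tight group whose spread was the smallest of the 3 genotypes for this gene. Il1rl1 was 6.3254 in Ahrr-KO M3, while the other 5 Ahrr-KO samples lay between 7.2126 and 7.4494. Ahrr-KO M3 was also the lowest of its group in the other 8 genes, and its epithelial marker sum was 47325. Its eosinophil marker sum (7559) was the lowest of all samples and its fibroblast sum (1626) the highest. Ahrr-KO M1 had a higher epithelial sum (52104) with an Il1rl1 level of 7.2126. The part of epithelial RNA in the Il1rl1 level of Ahrr-KO M3 was not tested.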

How the results depend on the processing

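In Ahr-KO against WT, Csf2rb and Csf2rb2 were called in every alternative that fitted them separately and without any of the 12 samples, from -1.55 to -1.43 (leave-one-out -1.52 to -1.38) and from -1.88 to -1.76 (-1.85 to -1.68). The number of members called, 2, became 1 of 8 with both counts summed, by construction, and 3 with Siglecf or Il3ra as given above, with 2 to 3 when a sample was left out. In Ahr-KO against Ahrr-KO the 4 became 2 with the epithelial covariate, 3 with summed counts and 3 to 4 when a sample was left out. In Ahrr-KO against WT the count was 0 in every alternative. In both interactions and between the sexes it was 0 in those run, which left out the replicate block, the joint fit, the fit without sex and the epithelial covariate. A minimum mean of 3 dropped Il3ra and Il1rl1.

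Signs that changed belonged to differences that were not called. With the epithelial covariate, chosen after seeing the data, Ahr-KO against WT gave -0.0778 for Ccr3. Ahrr-KO against WT gave 0.11 for Ccr3, 0.0065 for Siglecf, 0.31 for Csf2rb, 0.37 for Csf2rb2 and 0.13 for Adgre1. Ahr-KO against Ahrr-KO gave -0.0555 for Ccr3, -0.17 for Csf2ra and -0.30 for Adgre1. Quantile normalization gave -0.0546 for Csf2ra in Ahr-KO against Ahrr-KO, and between the sexes -0.13 for Ccr3, -0.0095 for Siglecf and -0.0254 for Adgre1. Leaving out a sample gave, in Ahr-KO against WT, -0.0654 to 0.0981 for Ccr3 and -0.0702 to 0.1256 for Il1rl1, in Ahrr-KO against WT -0.26 to 0.0053 for Csf2rb and -0.14 to 0.12 for Csf2rb2, in Ahr-KO against Ahrr-KO -0.10 to 0.14 for Csf2ra, and between the sexes -0.0155 to 0.15 for Siglecf and -0.1673 to 0.0109 for Il5ra. The cause was not tested.

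Counts over all genes moved more. In Ahr-KO against WT 1003 became 553 with all 18 samples in a joint fit and 623 to 1124 without a sample. In Ahrr-KO against WT 9 became 4 to 14, and 4 to 25 without a sample. In Ahr-KO against Ahrr-KO 1708 of 11474 genes tested became 828 of 5372 with a minimum mean of 3. The 1708 became 994 without sex, 218 with the epithelial covariate and 818 to 2574 without a sample. Between the sexes 351 of 11468 genes tested became 163 of 22708 with no minimum mean, and 142 to 733 without a sample. With the replicate block, added although the numbers pair no samples (r between same numbers -0.592 to 0.473), the counts were 918, 4 and 1946, and the members called were 2, 0 and 4. Csf3r in Ahrr-KO against WT lost its call under it (adjusted p 0.224).

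The 3 ratios over Csf2rb with Il5ra, Csf2ra and Csf2rb2 ran from 1.73 to 1.95, 0.98 to 1.20 and -0.46 to -0.34 on the log2 scale when a sample was left out in Ahr-KO against WT. Low counts limit Il3ra and Il1rl1, with as few as 10.22 and 28.4 normalized counts in a sample, and the deposited scale compresses differences at that level (Il3ra in Ahr-KO against WT 0.40, and 0.925 with voom). Limits of these data are the bulk measurement, 3 animals per sex and genotype, the gate on Siglec-F protein, and WT and Ahr-KO mice housed apart. Others are an Ahrr-KO label that Ahrr itself does not bear out, Ahr counts that were not lower in Ahr-KO, and the shared reads of Csf2rb and Csf2rb2. Transcript levels give no receptor protein or surface level.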
